A study of Homo sapiens with 16 samples.

Results

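The 35 genes described here encode the enzymes of cholesterol and fatty acid synthesis, the proteins that switch those enzymes on and off, and the exporters that remove sterol from the cell. They were listed by name and role, with earlier results of these data known, and all 35 were found by symbol among the 64252 genes of each count table. The sterol branch holds 18 of them, regulators and sterol transport 6, the fatty acid branch 8, and efflux genes with other LXR targets 3.

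The study put an shRNA against SH2D1A (sh-SH2D1A) or a control shRNA (sh-NC) into Jurkat and 6T-CEM cells, both human lines of T-cell acute lymphoblastic leukaemia (T-ALL), and sequenced messenger RNA. SH2D1A encodes SAP, a signalling adaptor of the SLAM receptor family in T cells. The groups are Jurkat with sh-SH2D1A and Jurkat with sh-NC at days 8 and 10, and 6T-CEM with sh-SH2D1A and 6T-CEM with sh-NC at days 5 and 10, with 2 libraries in each of the 8 groups. The labels do not give the hairpin sequences, what the days are counted from, whether the cells were clones, or whether the 2 libraries of a group came from separate cultures, so a p-value measures only the spread between these libraries.

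Each library held 27217899 to 33788024 counts, and 32 of the 35 genes had at least 100 counts in every library. SH2D1A itself had 53.9 and 49.4 CPM (depth-scaled counts, normalised by TMM) in Jurkat sh-SH2D1A and 163 and 175 CPM in sh-NC at day 8. Its log2 change was -1.72 and -1.60 at days 8 and 10 of Jurkat and -1.71 and -1.0 at days 5 and 10 of 6T-CEM. Of 7 T-lineage markers, 6 were above 1 CPM in every library, while the 3 epithelial markers summed to at most 0.124 CPM and the 2 adipocyte markers to at most 0.749 CPM in any library. The 3 B cell markers, led by CD79A, summed to 44.6 to 61.8 CPM in Jurkat sh-SH2D1A and 48 to 74.5 CPM in Jurkat sh-NC, and to 16.1 to 29 CPM in 6T-CEM sh-SH2D1A and 22.3 to 42.6 CPM in 6T-CEM sh-NC, while the other 2 of them stayed under 1 CPM. The 3 erythroid markers reached 2.71 CPM in 6T-CEM sh-SH2D1A and 0.876 CPM in 6T-CEM sh-NC, the 3 myeloid markers reached 1.09 CPM, and the part of these markers in the results was not tested. The sh-SH2D1A pair of 6T-CEM day 5 was the least alike, its counts over all genes differing by a chi-square of 24.6 for each degree of freedom, where the pairs of the other 7 groups gave 5.01 to 10.2.

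Cholesterol is built from acetyl-CoA through mevalonate, isoprenoids, squalene and lanosterol, and fatty acids are built from the same acetyl-CoA and then elongated and desaturated. Transcription of both routes is driven by SREBP proteins, which sit in the endoplasmic reticulum as precursors. When sterol is scarce, SCAP carries them to the Golgi for cleavage, and when sterol is plentiful, INSIG proteins hold SCAP back. A product of SREBF2 acts mainly on the sterol enzymes and a product of SREBF1 mainly on the fatty acid enzymes, while LXR receptors, activated by oxysterols, raise the exporters ABCA1 and ABCG1, the receptor-degrading ligase MYLIP and SREBF1 itself. Dividing T cells use both routes to build membrane.

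With sh-SH2D1A, the log2 change was below 0 for 29 of 34 tested members at day 8 and 33 of 34 at day 10 in Jurkat cells, and for 31 of 35 at day 5 and 24 of 35 at day 10 in 6T-CEM cells, of which a smaller number passed the test. Summed over all 35 genes, Jurkat sh-SH2D1A libraries held 6794 and 6765 CPM at day 8, against 8685 and 8721 CPM in sh-NC libraries. At day 10 the Jurkat sums were 5836 and 5924 CPM with sh-SH2D1A and 7757 and 7667 CPM with sh-NC. In 6T-CEM cells the sums were 3371 and 3333 CPM with sh-SH2D1A and 5006 and 4960 CPM with sh-NC at day 5. At 6T-CEM day 10 they were 3749 and 3820 CPM with sh-SH2D1A and 4361 and 4394 CPM with sh-NC. Both sh-SH2D1A sums lay below both sh-NC sums in all 4 comparisons, and these sums are led by the most abundant genes. In RNA from whole cultures, fewer cells that express a gene and less of its RNA per cell cannot be told apart.

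Gene by gene, edgeR's quasi-likelihood test called 24 of 34 tested members lower and 0 higher at Jurkat day 8, where 7.13% of all tested genes were called lower and 5.23% higher. At Jurkat day 10, 15 of 34 were called lower and 0 higher, against 2.52% and 1.26% of all genes. At 6T-CEM day 5, 9 of 35 were called lower and 0 higher, against 1.51% and 0.606% of all genes. At 6T-CEM day 10, 9 of 35 were called lower, against 7.42% of all genes, and 3 were called higher, against 6.61% of all genes. The median log2 change of the members was -0.40, -0.37, -0.38 and -0.07 in these 4 comparisons, and that of all tested genes lay between -0.0032 and 0.0042. Both sh-SH2D1A libraries lay below both sh-NC libraries for 28 and 29 members at days 8 and 10 of Jurkat, against 28.3% and 24.5% of all tested genes. They did so for 25 and 18 members at days 5 and 10 of 6T-CEM, against 25.3% and 28.7% of all tested genes.

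FDFT1, INSIG1, SCD, FADS2 and ABCG1 were called lower in all 4 comparisons, and these 5 genes come from all 4 roles. SC5D, HMGCS1 and SREBF1 were called lower in 3, another 10 members in 2 and 8 in 1. The other 9, PMVK, MVK, CYP51A1, NSDHL, SCAP, SREBF2, FADS1, ACLY and MYLIP, were called lower in none of the 4. The shares of all tested genes called lower in a given number of comparisons were not counted, so these numbers of members have no background beside them. For the mean of the 4 changes, fitted over all 16 libraries, 28 of 35 members were called lower and 0 higher, against 12.3% and 10.7% of all genes. The count at Jurkat day 8 was 13 without sh-SH2D1A replicate 2, and at Jurkat day 10 it was 0 when genes with low counts were kept in the test, a setting in which no gene of the table was called although 3533 had an unadjusted p under 0.05. At 6T-CEM day 5 the count was 3 without sh-NC replicate 1, 2 without sh-NC replicate 2, 18 without sh-SH2D1A replicate 1 and 17 without sh-SH2D1A replicate 2.

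**Figure D1:**
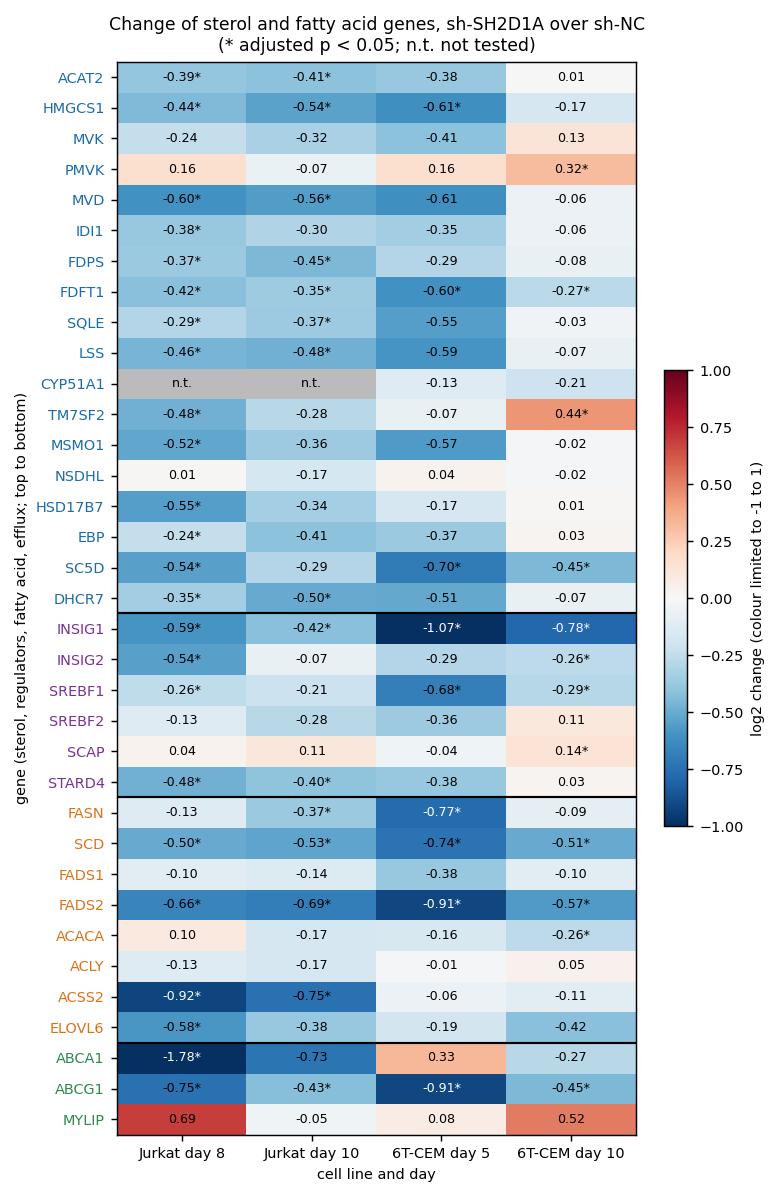
Log2 change of each of the 35 genes (rows, grouped by role) in the 4 comparisons (columns), sh-SH2D1A over sh-NC, with the value printed in each cell, an asterisk for an adjusted p under 0.05 and grey for CYP51A1 where it was not tested. FADS2, INSIG1 and SCD are blue with an asterisk in every column, and most sterol enzymes are blue in the first 3 columns and near white at 6T-CEM day 10.

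Within the sterol branch, 14 of 17 tested enzymes fell at Jurkat day 8, 8 of 17 at Jurkat day 10, 3 of 18 at 6T-CEM day 5 and 2 of 18 at 6T-CEM day 10, and 2 rose at 6T-CEM day 10. The median log2 changes of the branch were -0.39, -0.36, -0.39 and -0.05. Of all tested genes, 7.13% were called lower at Jurkat day 8, 2.52% at Jurkat day 10 and 1.51% at 6T-CEM day 5. At 6T-CEM day 10, 7.42% of all tested genes were called lower and 6.61% higher. The 2 enzymes called in each direction at 6T-CEM day 10 are near these shares. At 6T-CEM day 5, where few enzymes passed the test, 16 of the 18 log2 changes were below 0. Both sh-SH2D1A libraries lay below both sh-NC libraries there for 14 enzymes, against 25.3% of all tested genes. The enzymes called lower at Jurkat day 8 run from the first steps (ACAT2 and HMGCS1) to the last (SC5D and DHCR7). Of these enzymes, only HMGCS1, MVD, LSS, MSMO1 and SC5D kept the call in every alternative fit. ACAT2 and DHCR7 lost it with 1 library left out. Summed over the branch, 6T-CEM sh-SH2D1A libraries held 1044 and 1092 CPM at day 5, against 1498 and 1523 CPM in sh-NC, whereas at day 10 they held 1261 and 1268 CPM, against 1339 and 1359 CPM in sh-NC.

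FDFT1, squalene synthase, makes the first compound committed to sterol. Jurkat sh-SH2D1A libraries had 485 and 477 CPM at day 8 and 469 and 444 CPM at day 10, against 611 and 665 CPM at day 8 and 587 and 580 CPM at day 10 in sh-NC libraries. In 6T-CEM cells the sh-SH2D1A libraries had 258 and 286 CPM at day 5 and 248 and 241 CPM at day 10, against 411 and 420 CPM at day 5 and 290 and 299 CPM at day 10 in sh-NC. The groups did not overlap in any comparison, and the gap was narrowest at 6T-CEM day 10. The log2 change was -0.42 ± 0.05 (SE, adjusted p 0.00398) at Jurkat day 8 and -0.35 ± 0.07 (adjusted p 0.0265) at Jurkat day 10. In 6T-CEM cells it was -0.60 ± 0.11 (adjusted p 0.0307) at day 5 and -0.27 ± 0.03 (adjusted p 0.00133) at day 10. The calls at Jurkat day 8, Jurkat day 10 and 6T-CEM day 5 each depended on single libraries, being lost without Jurkat day 8 sh-SH2D1A replicate 2 (adjusted p 0.0571), without Jurkat day 10 sh-NC replicate 1 (0.0708), sh-NC replicate 2 (0.0519) or sh-SH2D1A replicate 2 (0.0794), and without 6T-CEM day 5 sh-NC replicate 1 (0.252) or replicate 2 (0.337).

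SC5D, the desaturase that acts near the end of the pathway, had its widest gap at 6T-CEM day 5. There it had 32.8 and 33.4 CPM with sh-SH2D1A, against 54.3 and 54.2 CPM with sh-NC. At 6T-CEM day 10 it had 25.3 and 23.1 CPM with sh-SH2D1A and 34.0 and 32.2 CPM with sh-NC. In Jurkat cells it had 23.1 and 24.0 CPM at day 8 and 26.4 and 25.6 CPM at day 10 with sh-SH2D1A, against 35 and 33.2 CPM at day 8 and 31.0 and 32.9 CPM at day 10 with sh-NC. All groups were apart, but the day 10 gap in Jurkat cells did not pass the test. The log2 change was -0.54 ± 0.08 (adjusted p 0.00696) at Jurkat day 8, -0.29 ± 0.11 (adjusted p 0.169) at Jurkat day 10, -0.70 ± 0.14 (adjusted p 0.0365) at 6T-CEM day 5 and -0.45 ± 0.08 (adjusted p 0.00917) at 6T-CEM day 10. Without sh-NC replicate 2 the 6T-CEM day 5 adjusted p was 0.27, and without sh-NC replicate 1 it was 0.246.

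HMGCS1, the cytosolic synthase that feeds the mevalonate route, is shown here with the window around its upstream start because it carries a pair of NF-Y boxes, a motif that most of the sterol genes share. The window, from RefSeq (GRCh38.p14), spans chr5:43313363-43313662 on the minus strand, from 250 bases before the start to 50 after it, and the capitals mark CCAAT read on the opposite strand.
HMGCS1: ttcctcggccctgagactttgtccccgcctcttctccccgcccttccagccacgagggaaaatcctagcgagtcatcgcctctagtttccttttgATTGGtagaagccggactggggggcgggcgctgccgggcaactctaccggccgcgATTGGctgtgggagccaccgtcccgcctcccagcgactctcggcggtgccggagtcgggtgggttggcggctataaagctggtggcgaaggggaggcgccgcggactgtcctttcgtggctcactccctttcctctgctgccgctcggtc
HMGCS1 had 423 and 396 CPM at day 8 and 249 and 255 CPM at day 10 in Jurkat sh-SH2D1A, against 541 and 564 CPM at day 8 and 339 and 394 CPM at day 10 in Jurkat sh-NC. In 6T-CEM cells it had 97.7 and 106 CPM at day 5 and 90.7 and 100 CPM at day 10 with sh-SH2D1A, against 151 and 163 CPM at day 5 and 108 and 107 CPM at day 10 with sh-NC. The groups were apart in all 4 comparisons, by the least at 6T-CEM day 10. The log2 change was -0.44 ± 0.05 (adjusted p 0.00294), -0.54 ± 0.09 (adjusted p 0.00841) and -0.61 ± 0.12 (adjusted p 0.0351) at Jurkat day 8, Jurkat day 10 and 6T-CEM day 5, and -0.17 ± 0.05 (adjusted p 0.0657) at 6T-CEM day 10. At 6T-CEM day 5 the adjusted p was 0.216 without sh-NC replicate 1 and 0.442 without sh-NC replicate 2.

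FDPS, which makes farnesyl diphosphate, fell in Jurkat cells. At day 8 it had 403 and 413 CPM with sh-SH2D1A and 518 and 531 CPM with sh-NC, and at day 10 it had 310 and 297 CPM with sh-SH2D1A and 426 and 404 CPM with sh-NC. In 6T-CEM cells it had 116 and 106 CPM with sh-SH2D1A and 140 and 133 CPM with sh-NC at day 5, and 161 and 159 CPM with sh-SH2D1A and 166 and 172 CPM with sh-NC at day 10. The groups never overlapped, with a small gap at 6T-CEM day 10. The log2 change was -0.37 ± 0.05 (adjusted p 0.00367) at Jurkat day 8, -0.45 ± 0.08 (adjusted p 0.0103) at Jurkat day 10, -0.29 ± 0.12 (adjusted p 0.253) at 6T-CEM day 5 and -0.08 ± 0.04 (adjusted p 0.196) at 6T-CEM day 10. Without either sh-SH2D1A library the Jurkat day 8 adjusted p was 0.0533 or 0.0504. The tables also hold 8 FDPS pseudogenes, and reads could be split between them and FDPS.

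Among the other sterol enzymes, MVD (the decarboxylase that ends the mevalonate steps) and LSS (which closes the ring to lanosterol) fell at both Jurkat days. The log2 changes were -0.60 ± 0.06 and -0.56 ± 0.10 for MVD and -0.46 ± 0.05 and -0.48 ± 0.08 for LSS, with adjusted p of 0.0160 or less. ACAT2, SQLE and DHCR7 also fell at both Jurkat days. Leaving out 1 library ended these calls in part: without sh-SH2D1A replicate 1 the Jurkat day 8 adjusted p was 0.0559 for ACAT2, 0.0758 for SQLE and 0.0715 for DHCR7, and without replicate 2 it was 0.12 for SQLE and 0.0835 for DHCR7. At Jurkat day 10 the highest adjusted p with 1 library left out was 0.0981 for SQLE (sh-SH2D1A replicate 1; also lost without replicate 2 of either group) and 0.0778 for ACAT2 (sh-SH2D1A replicate 2; also lost without sh-NC replicate 1). MSMO1, HSD17B7, EBP, IDI1 and TM7SF2 were called lower at Jurkat day 8 and in no other of the 4 comparisons. The EBP call was lost with a replicate block (adjusted p 0.0605), without either sh-SH2D1A library (0.134 and 0.199), without sh-NC replicate 2 (0.0661) and with all 16 libraries in the fit (0.279). The calls of HSD17B7 (0.0724) and IDI1 (0.0947) were lost without sh-SH2D1A replicate 2, and that of IDI1 also with all 16 libraries (0.0799). The log2 changes of MVD, LSS, MSMO1, SQLE and DHCR7 at 6T-CEM day 5 lay between -0.61 and -0.51, and none of them passed the test there. At 6T-CEM day 10 these 5 lay between -0.07 and -0.02.

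At 6T-CEM day 10, 2 of the 18 sterol enzymes were called higher, where 6.61% of all tested genes were called higher. PMVK, phosphomevalonate kinase, had 26.4 and 25.0 CPM with sh-SH2D1A and 20.4 and 20.9 CPM with sh-NC at 6T-CEM day 10. TM7SF2, a sterol reductase, had 34.5 and 36.3 CPM with sh-SH2D1A and 25.1 and 27.0 CPM with sh-NC there. Both rose at that day, by 0.32 ± 0.09 (adjusted p 0.0435) and 0.44 ± 0.08 (adjusted p 0.00702) in log2 change, although TM7SF2 was lower at Jurkat day 8 (-0.48 ± 0.10, adjusted p 0.0233). The TM7SF2 call at 6T-CEM day 10 was lost with all 16 libraries in the fit (adjusted p 0.367), and that at Jurkat day 8 without sh-SH2D1A replicate 1 (0.126) and with all 16 libraries (0.252). The PMVK call was lost when any of the 4 libraries was left out, with adjusted p between 0.0886 and 0.19. In edgeR's quasi-likelihood test it was also lost with a replicate block (adjusted p 0.0567), with low counts left in (0.121) and with all 16 libraries in the fit (0.386). NSDHL, a sterol dehydrogenase, stayed between -0.17 and 0.04 in log2 change and passed the test nowhere. CYP51A1, lanosterol demethylase, had 0 to 16 counts in every Jurkat library, too few to test, and 266 to 426 counts in 6T-CEM libraries. At Jurkat day 10 its counts were 0 and 0 with sh-SH2D1A and 3 and 0 with sh-NC, and 0 counts in a library there leave room for a level of 0.0973 to 0.103 CPM (3 counts). CYP51A1 shares 138 exonic bases with CYP51A1-AS1 on the opposite strand, and the tables hold 3 CYP51A1 pseudogenes, so its reads could be split among them.

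**Figure D2:**
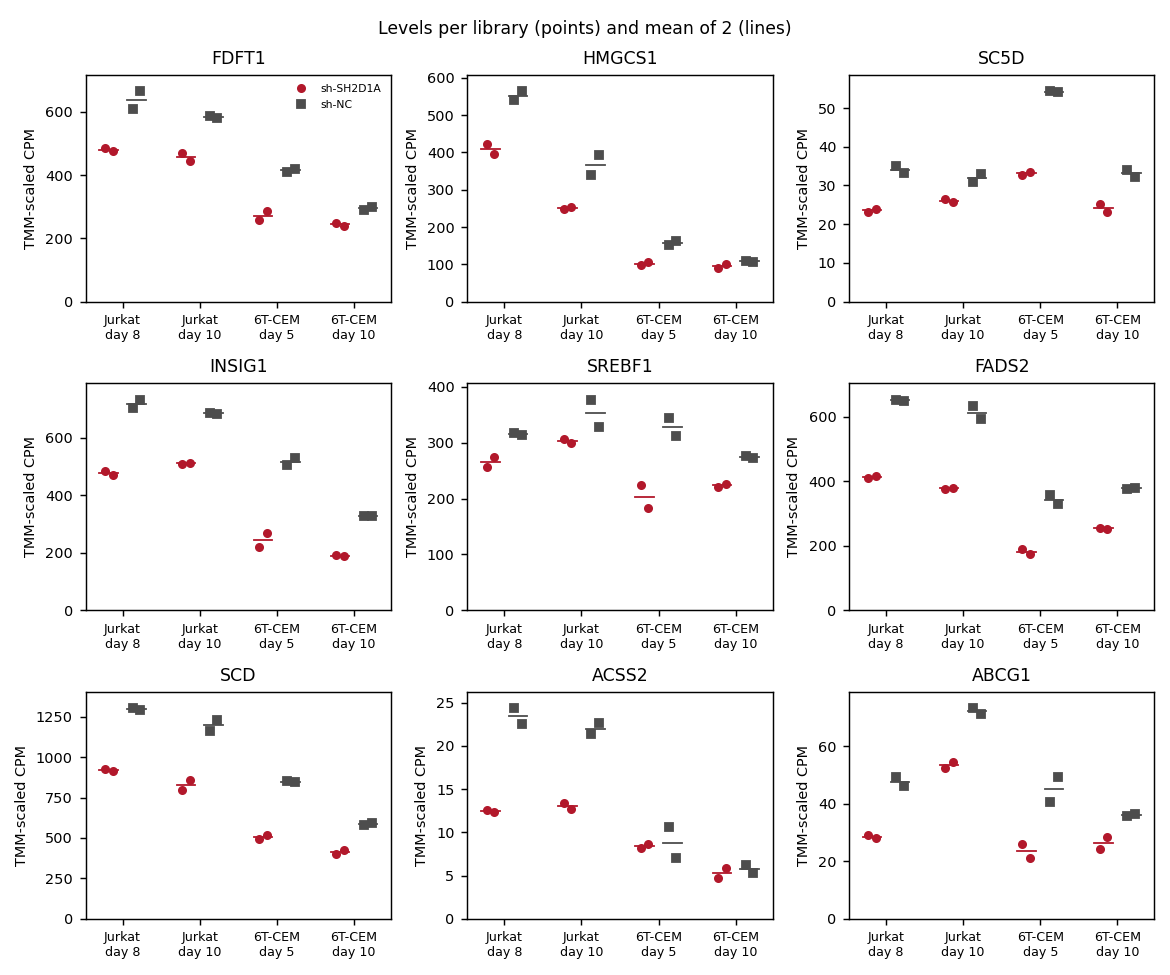
TMM-scaled CPM (vertical axes, from 0) of 9 genes in every library, with red circles for sh-SH2D1A, grey squares for sh-NC and lines for the mean of 2. For FDFT1, HMGCS1, SC5D, INSIG1, SREBF1, FADS2, SCD and ABCG1 the red circles lie below the grey squares at every line and day, and for ACSS2 they do so in Jurkat cells.

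Among the 6 regulators, 4 were called lower at Jurkat day 8, 2 at Jurkat day 10, 2 at 6T-CEM day 5 and 3 at 6T-CEM day 10. In the same comparisons 7.13%, 2.52%, 1.51% and 7.42% of all tested genes were called lower. SCAP was the 1 regulator called higher, at 6T-CEM day 10, where 6.61% of all tested genes were called higher. The median log2 changes of the 6 regulators were -0.37, -0.25, -0.37 and -0.12. INSIG1, the feedback protein that holds SCAP back and is itself switched on by SREBP, had the lowest log2 change of the 6 in each comparison. Its RefSeq window (GRCh38.p14) at chr7:155297628-155297927, plus strand, is printed because it holds 3 of the searched motifs within 1 promoter: CCAAT on the opposite strand at position -170, the looser sterol regulatory element TCANNCCAC at -108 and the E-box CACGTG at -55, all in capitals and counted from the annotated start.
INSIG1: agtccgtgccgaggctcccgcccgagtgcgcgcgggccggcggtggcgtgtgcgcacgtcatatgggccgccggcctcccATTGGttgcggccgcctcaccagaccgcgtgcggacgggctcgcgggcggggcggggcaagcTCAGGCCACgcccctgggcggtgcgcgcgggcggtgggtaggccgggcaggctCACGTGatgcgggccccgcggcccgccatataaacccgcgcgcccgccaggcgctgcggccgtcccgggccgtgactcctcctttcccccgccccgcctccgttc
INSIG1 had 485 and 472 CPM at day 8 and 511 and 512 CPM at day 10 in Jurkat sh-SH2D1A, against 703 and 733 CPM at day 8 and 686 and 685 CPM at day 10 in Jurkat sh-NC. In 6T-CEM cells it had 221 and 267 CPM at day 5 and 191 and 189 CPM at day 10 with sh-SH2D1A, against 505 and 530 CPM at day 5 and 329 and 326 CPM at day 10 with sh-NC. The gap between groups was several times the spread within them in each comparison, and as a ratio it was widest in 6T-CEM cells. The log2 change was -0.59 ± 0.05 (adjusted p 0.000879) at Jurkat day 8 and -0.42 ± 0.07 (adjusted p 0.0100) at Jurkat day 10. The 6T-CEM log2 change was -1.07 ± 0.12 (adjusted p 0.00492) at day 5 and -0.78 ± 0.03 (adjusted p 5.61e-06) at day 10. The difference between the lines at day 10, Jurkat minus 6T-CEM, was 0.36 ± 0.10 and did not pass the test (adjusted p 0.160).

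SREBF1, which encodes the factor that acts mainly on fatty acid genes, had 257 and 275 CPM at day 8 and 307 and 300 CPM at day 10 in Jurkat sh-SH2D1A, against 318 and 313 CPM at day 8 and 377 and 329 CPM at day 10 in sh-NC. In 6T-CEM cells it had 224 and 182 CPM at day 5 and 221 and 226 CPM at day 10 with sh-SH2D1A, against 344 and 312 CPM at day 5 and 276 and 272 CPM at day 10 with sh-NC. The sh-SH2D1A libraries were lower throughout, and at Jurkat day 10 the sh-NC pair was further apart than the gap between the groups. It fell at Jurkat day 8 (-0.26 ± 0.05, adjusted p 0.0209), 6T-CEM day 5 (-0.68 ± 0.13, adjusted p 0.0357) and 6T-CEM day 10 (-0.29 ± 0.03, adjusted p 0.000713), while the value at Jurkat day 10 was -0.21 ± 0.09 (adjusted p 0.210). At Jurkat day 8 the adjusted p was 0.199 without sh-SH2D1A replicate 1 and 0.0958 without replicate 2, and at 6T-CEM day 5 it was 0.273 without sh-NC replicate 1 and 0.113 without replicate 2.

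SREBF2, which encodes the factor that acts mainly on sterol genes, passed the test in none of the 4 comparisons. Its log2 changes were -0.13 ± 0.05, -0.28 ± 0.07 and -0.36 ± 0.12 at Jurkat day 8, Jurkat day 10 and 6T-CEM day 5 and 0.11 ± 0.04 at 6T-CEM day 10, with adjusted p between 0.0711 and 0.173, and it was lower in the mean of the 4 (-0.17 ± 0.03, adjusted p 0.00252). Its window held the only match of a member to the stricter element TCACNCCAC, shown in capitals in the stretch at chr22:41832952-41833000, plus strand (RefSeq, GRCh38.p14).
SREBF2: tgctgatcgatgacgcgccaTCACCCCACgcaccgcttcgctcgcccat
SCAP, the escort, changed by 0.04 ± 0.05, 0.11 ± 0.08 and -0.04 ± 0.13 before 6T-CEM day 10, where it rose by 0.14 ± 0.04 (adjusted p 0.0404). There it had 166 and 169 CPM with sh-SH2D1A and 156 and 150 CPM with sh-NC, and the call was lost when any of the 4 libraries was left out (adjusted p 0.0522 to 0.252).

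INSIG2, the second feedback protein, fell at Jurkat day 8 with 23.8 and 21.7 CPM in sh-SH2D1A and 32.8 and 33.2 CPM in sh-NC. At Jurkat day 10 it had 28.0 and 29.5 CPM with sh-SH2D1A and 28.6 and 32.0 CPM with sh-NC, and the groups overlapped. Levels in 6T-CEM cells were 48.9 and 53.9 CPM at day 5 and 27.8 and 27.8 CPM at day 10 with sh-SH2D1A, against 61.4 and 65.2 CPM at day 5 and 34.2 and 32.6 CPM at day 10 with sh-NC. Its log2 changes in the 4 comparisons were -0.54 ± 0.09 (adjusted p 0.00844), -0.07 ± 0.11 (adjusted p 0.784), -0.29 ± 0.13 (adjusted p 0.311) and -0.26 ± 0.07 (adjusted p 0.0484). The Jurkat day 8 call was lost without sh-SH2D1A replicate 2 (adjusted p 0.0641) and the 6T-CEM day 10 call without any 1 library (adjusted p 0.0699 to 0.188).

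STARD4, a soluble carrier of cholesterol between membranes, fell at both Jurkat days. It had 89.8 and 84.6 CPM at day 8 and 83.4 and 86.4 CPM at day 10 in Jurkat sh-SH2D1A, against 118 and 125 CPM at day 8 and 106 and 119 CPM at day 10 in sh-NC. Its 6T-CEM levels were 93.4 and 121 CPM at day 5 and 59.4 and 59.4 CPM at day 10 with sh-SH2D1A, against 131 and 150 CPM at day 5 and 59.6 and 57.4 CPM at day 10 with sh-NC. The Jurkat groups were well apart, and the 6T-CEM day 10 groups overlapped. STARD4 had log2 changes of -0.48 ± 0.06 (adjusted p 0.00277), -0.40 ± 0.09 (adjusted p 0.0320), -0.38 ± 0.15 (adjusted p 0.230) and 0.03 ± 0.05 (adjusted p 0.794). At Jurkat day 10 the adjusted p was 0.106 without sh-NC replicate 2 and 0.109 without sh-SH2D1A replicate 1. The difference between the lines at day 10, Jurkat minus 6T-CEM, was -0.43 ± 0.15 and did not pass the test (adjusted p 0.320).

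In the fatty acid branch, 4 of 8 genes were called lower at each Jurkat day and 3 of 8 at each 6T-CEM day, and none were called higher. Of all tested genes, 7.13% and 2.52% were called lower at days 8 and 10 of Jurkat, and 1.51% and 7.42% at days 5 and 10 of 6T-CEM. The median log2 changes of the branch were -0.32, -0.38, -0.28 and -0.18. The desaturases FADS2 and SCD were lower in all 4 comparisons, while ACLY, which makes cytosolic acetyl-CoA from citrate, stayed between -0.17 and 0.05 and passed the test nowhere.

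FADS2, the first desaturase of polyunsaturated fatty acid synthesis, had 410 and 416 CPM at day 8 and 376 and 380 CPM at day 10 in Jurkat sh-SH2D1A, against 652 and 650 CPM at day 8 and 632 and 594 CPM at day 10 in sh-NC. The 6T-CEM libraries had 189 and 174 CPM at day 5 and 255 and 252 CPM at day 10 with sh-SH2D1A, against 357 and 328 CPM at day 5 and 375 and 380 CPM at day 10 with sh-NC. The sh-SH2D1A and sh-NC groups did not overlap, and the 2 libraries of each group lay close together. The log2 changes were -0.66 ± 0.05 (adjusted p 0.000465), -0.69 ± 0.07 (adjusted p 0.000892), -0.91 ± 0.12 (adjusted p 0.00716) and -0.57 ± 0.03 (adjusted p 1.76e-05) in the 4 comparisons. FADS1, its neighbour on chromosome 11 and the next desaturase of that route, lies on the opposite strand with 490 exonic bases in common. FADS1 changed by -0.10 ± 0.05, -0.14 ± 0.08, -0.38 ± 0.11 and -0.10 ± 0.04 and passed the test in none of the 4 comparisons. Its sh-SH2D1A libraries lay below its sh-NC libraries in all 4, and it was lower in the mean of the 4 (-0.18, adjusted p 0.000666, edgeR's quasi-likelihood test). Without a stated strand setting the reads of the bases common to FADS1 and FADS2 cannot be told apart.

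SCD, the desaturase that makes oleate and palmitoleate, had the highest level per length of the 35 genes in the sh-NC groups at day 10, at 223 ± 8.87 RPKM in Jurkat cells and 109 ± 1.12 RPKM in 6T-CEM cells (SD, n = 2). Its RefSeq window (GRCh38.p14) at chr10:100346983-100347282, plus strand, is printed as the fatty acid counterpart of HMGCS1, with a pair of CCAAT boxes in capitals at positions -229 and -186.
SCD: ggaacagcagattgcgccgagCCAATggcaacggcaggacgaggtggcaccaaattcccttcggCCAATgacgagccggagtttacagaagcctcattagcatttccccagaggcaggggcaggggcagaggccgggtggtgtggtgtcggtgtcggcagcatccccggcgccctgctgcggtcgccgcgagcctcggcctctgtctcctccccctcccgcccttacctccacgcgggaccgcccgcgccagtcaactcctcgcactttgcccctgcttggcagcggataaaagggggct
SCD had 925 and 913 CPM at day 8 and 798 and 858 CPM at day 10 in Jurkat sh-SH2D1A, against 1303 and 1290.1 CPM at day 8 and 1164 and 1231 CPM at day 10 in sh-NC. Its 6T-CEM levels were 494 and 518 CPM at day 5 and 399 and 424 CPM at day 10 with sh-SH2D1A, against 850 and 847 CPM at day 5 and 582 and 590 CPM at day 10 with sh-NC. The sh-SH2D1A libraries were lower in every comparison with wide gaps. The log2 changes were -0.50 ± 0.05 (adjusted p 0.00105), -0.53 ± 0.07 (adjusted p 0.00376), -0.74 ± 0.10 (adjusted p 0.0106) and -0.51 ± 0.03 (adjusted p 7.29e-05). At 6T-CEM day 5 the adjusted p was 0.0852 without sh-NC replicate 1 and 0.0876 without replicate 2.

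FASN, fatty acid synthase, fell at Jurkat day 10 and 6T-CEM day 5. At Jurkat day 8 it had 480 and 499 CPM with sh-SH2D1A and 566 and 496 CPM with sh-NC, and the groups overlapped. Day 10 of Jurkat gave 366 and 385 CPM with sh-SH2D1A and 515 and 458 CPM with sh-NC. The 6T-CEM libraries had 181 and 134 CPM at day 5 and 285 and 305 CPM at day 10 with sh-SH2D1A, against 283 and 257 CPM at day 5 and 317 and 313 CPM at day 10 with sh-NC. The groups were apart in the last 3 comparisons. The log2 changes were -0.13 ± 0.07 (adjusted p 0.291), -0.37 ± 0.08 (adjusted p 0.0348), -0.77 ± 0.15 (adjusted p 0.0385) and -0.09 ± 0.04 (adjusted p 0.159). The Jurkat day 10 adjusted p was 0.145 without sh-NC replicate 1 and 0.104 without sh-SH2D1A replicate 1, and at 6T-CEM day 5 it was 0.160 and 0.0572 when sh-NC replicate 1 and then replicate 2 was left out.

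ACSS2, which makes acetyl-CoA from acetate, showed the largest fall of the fatty acid branch in Jurkat cells. It had 12.6 and 12.4 CPM at day 8 and 13.4 and 12.7 CPM at day 10 with sh-SH2D1A, against 24.4 and 22.6 CPM at day 8 and 21.4 and 22.6 CPM at day 10 with sh-NC. Its 6T-CEM levels were 8.17 and 8.64 CPM at day 5 and 4.77 and 5.90 CPM at day 10 with sh-SH2D1A, against 10.6 and 6.99 CPM at day 5 and 6.20 and 5.31 CPM at day 10 with sh-NC. The Jurkat groups were far apart and the 6T-CEM groups overlapped at both days. The log2 changes were -0.92 ± 0.11 (adjusted p 0.00281), -0.75 ± 0.13 (adjusted p 0.0137), -0.06 ± 0.27 (adjusted p 0.945) and -0.11 ± 0.19 (adjusted p 0.776). The difference between the lines at day 10, Jurkat minus 6T-CEM, was -0.64 ± 0.26 and did not pass the test (adjusted p 0.405).

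The other fatty acid genes were called lower in 1 comparison each or none. ELOVL6, an elongase, fell at Jurkat day 8 (-0.58 ± 0.12, adjusted p 0.0211), and ACACA, acetyl-CoA carboxylase, fell at 6T-CEM day 10 (-0.26 ± 0.05, adjusted p 0.0110). ACACA had 55.7 and 56.3 CPM with sh-SH2D1A and 66.0 and 68.5 CPM with sh-NC there, and it lay between -0.17 and 0.10 in the other 3 comparisons. The ELOVL6 call was lost without either sh-SH2D1A library (adjusted p 0.0895 and 0.103) and with all 16 libraries in the fit (0.179). The ACACA call was lost without sh-NC replicate 2 (adjusted p 0.0683) and with all 16 libraries (0.118).

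Of the LXR targets, ABCG1, which exports cholesterol to lipoprotein particles, was lower in all 4 comparisons. It had 29.1 and 28.1 CPM at day 8 and 52.6 and 54.5 CPM at day 10 in Jurkat sh-SH2D1A, against 49.4 and 46.1 CPM at day 8 and 73.3 and 71.3 CPM at day 10 in sh-NC. The 6T-CEM libraries had 26.1 and 21.3 CPM at day 5 and 24.3 and 28.5 CPM at day 10 with sh-SH2D1A, against 40.8 and 49.3 CPM at day 5 and 35.9 and 36.4 CPM at day 10 with sh-NC. No groups overlapped. ABCG1 had log2 changes of -0.75 ± 0.08 (adjusted p 0.00154), -0.43 ± 0.09 (adjusted p 0.0216), -0.91 ± 0.17 (adjusted p 0.0324) and -0.45 ± 0.09 (adjusted p 0.0124). The call was lost at Jurkat day 10 when either replicate 1 was left out (adjusted p 0.102 without that of sh-SH2D1A and 0.0583 without that of sh-NC), and at 6T-CEM day 5 without sh-NC replicate 2 (0.220).

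ABCA1, the exporter to lipid-poor apolipoprotein, was near the limit of detection, with 13 to 93 counts per library. At Jurkat day 8 it had 28 and 13 counts with sh-SH2D1A and 93 and 57 counts with sh-NC, a log2 change of -1.78 ± 0.43 (adjusted p 0.0341). That call was lost at an adjusted p of 0.149 without sh-SH2D1A replicate 2 and of 0.0974 without sh-NC replicate 1. The Jurkat day 10 counts were 50 and 54 with sh-SH2D1A and 74 and 90 with sh-NC, and the change of -0.73 ± 0.28 did not pass (adjusted p 0.198). In 6T-CEM cells the counts were 27 and 30 with sh-SH2D1A and 25 and 21 with sh-NC at day 5, and 24 and 13 with sh-SH2D1A and 26 and 16 with sh-NC at day 10, and neither comparison passed. MYLIP, the ligase that marks lipoprotein receptors for degradation, had 59 to 262 counts per library and passed the test nowhere. Its log2 changes were 0.69 ± 0.29, -0.05 ± 0.22, 0.08 ± 0.31 and 0.52 ± 0.17, with adjusted p of 0.165, 0.943, 0.934 and 0.0820.

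The log2 change in 6T-CEM cells was higher at day 10 than at day 5, and so mostly nearer to 0, for 29 of the 35 genes, and this held for 16 of 18 sterol enzymes and all 6 regulators. The median difference, day 10 change minus day 5 change, was 0.34 over the members and 0.40 over the sterol branch, against -0.0027 over all genes. In the test of the difference itself, 2 members were called higher, against 0.404% of all genes, and 0 lower, against 0.277%, and 21 members had an unadjusted p under 0.05, all with a higher value at day 10, against 13.1% of all genes with such a p in either direction. The pair called were SQLE, squalene epoxidase, at 0.53 ± 0.09 (adjusted p 0.0198) and SREBF2 at 0.48 ± 0.10 (adjusted p 0.0423). SQLE had 62.0 and 69.9 CPM with sh-SH2D1A and 94.4 and 101 CPM with sh-NC at day 5, and 95.6 and 95.4 CPM with sh-SH2D1A and 97.1 and 98.7 CPM with sh-NC at day 10. SREBF2 had 135 and 118 CPM with sh-SH2D1A and 168 and 161 CPM with sh-NC at day 5, and 195 and 193 CPM with sh-SH2D1A and 175 and 186 CPM with sh-NC at day 10. For SREBF2 the sh-SH2D1A libraries were thus below the controls at day 5 and above them at day 10.

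SH2D1A itself was less reduced at 6T-CEM day 10, with 80.8 and 74.5 CPM in sh-SH2D1A and 156 and 154 CPM in sh-NC, than at day 5, with 55.5 and 62.7 CPM in sh-SH2D1A and 189 and 201 CPM in sh-NC. The difference of its log2 changes, day 10 minus day 5, was 0.72 ± 0.13 (adjusted p 0.0181), and the part of this in the sterol gene values was not tested. The count of 2 calls ranged from 0 to 13 as single libraries were left out. It was 0 without 6T-CEM day 5 sh-NC replicate 2 or any of the 4 day 10 libraries, 1 without day 5 sh-NC replicate 1 or any 1 Jurkat library, 13 without day 5 sh-SH2D1A replicate 1 and 6 without day 5 sh-SH2D1A replicate 2.

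**Figure D3:**
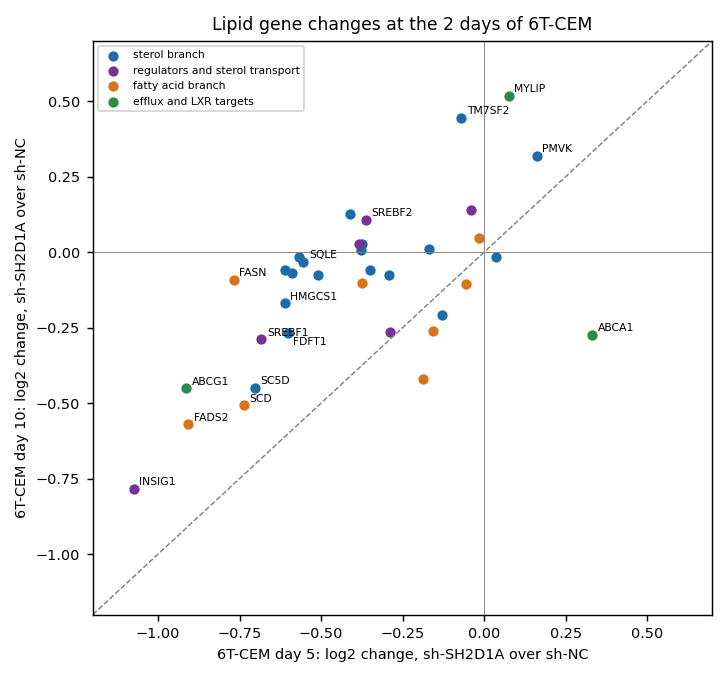
Log2 change, sh-SH2D1A over sh-NC, of each of the 35 genes in 6T-CEM cells at day 5 (horizontal axis) and day 10 (vertical axis), coloured by role, with the dashed line where both are equal. Of the 35 points, 29 lie above the line, most sterol genes sit near 0 on the vertical axis, and INSIG1 lies farthest down at both days.

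Between the lines at day 10, no member passed the test of the difference. The difference of changes, Jurkat minus 6T-CEM, had a median of -0.35 over the members and -0.38 over the sterol branch, against 0.0127 over all genes, and 17 of 18 sterol values were negative. The 18 include CYP51A1, which had only 0 and 0 counts with sh-SH2D1A and 3 and 0 counts with sh-NC at Jurkat day 10. edgeR called 0 members, against 0.812% of all genes in either direction, while 13 members were lower and 1 higher at an unadjusted p under 0.05, against 9.68% of all genes in either direction, and DESeq2 called 6. Leaving out 6T-CEM day 5 sh-SH2D1A replicate 1 or replicate 2, which stand on neither side of that difference but enter the same fit, gave 6 calls each. SH2D1A was also less reduced in 6T-CEM than in Jurkat cells at day 10, the difference being -0.60 ± 0.13 (adjusted p 0.0405). Between the Jurkat days, day 10 minus day 8, edgeR called 0 members and 1 gene in all, or 0.00454% of genes. DESeq2 called 0 members. An unadjusted p under 0.05 was found for 3 members, against 6.66% of all genes in either direction, and 3 members are near that share. The median difference there was -0.03 over the members.

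The control levels differed between lines and days before any comparison of shRNAs. At day 10, Jurkat sh-NC libraries were higher than 6T-CEM sh-NC libraries for 24 of the 35 genes, against 18.4% of all genes, and lower for 2, CYP51A1 and SCAP, against 18.2%. The SCAP call (-0.22, adjusted p 0.0394) was lost in 10 of 20 alternatives, 9 of which left out 1 library, with adjusted p up to 0.269. SREBF2 had 615 and 587 CPM in Jurkat sh-NC and 175 and 186 CPM in 6T-CEM sh-NC, a log2 ratio of 1.74 ± 0.07 (adjusted p 2.9e-10). HMGCS1 had a log2 ratio of 1.77 ± 0.08 (adjusted p 1.18e-09), ACSS2 of 1.93 ± 0.18 (adjusted p 1.59e-06) and SCD of 1.03 ± 0.06 (adjusted p 6.72e-09). The upper part of the order of levels per length was nearly common to both lines. SCD and INSIG1 came first and second in each, at 188 ± 0.305 and 89.8 ± 0.57 RPKM for INSIG1 in Jurkat and 6T-CEM sh-NC, and FDFT1 and FDPS did not differ beyond their spread in Jurkat sh-NC (112 ± 0.872 and 112 ± 4.07 RPKM). ABCA1 came last of the 35 in 6T-CEM sh-NC, at 0.0607 ± 0.0232 RPKM, and CYP51A1 came last in Jurkat sh-NC.

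The sh-NC groups of different days also differed, and day and any batch cannot be told apart. In 6T-CEM sh-NC, day 10 over day 5, 13 members were lower, against 20.6% of all genes, and 11 were higher, against 19.3%. STARD4 (-1.26 ± 0.11), INSIG2 (-0.92 ± 0.09), MSMO1 (-0.90 ± 0.12) and INSIG1 (-0.66 ± 0.07) fell, while PMVK (2.13 ± 0.18), NSDHL (0.95 ± 0.14) and ACACA (0.50 ± 0.09) rose, with adjusted p of 0.000317 or less. The sterol branch was split, with 6 enzymes lower and 8 higher. In Jurkat sh-NC, day 10 over day 8, 6 members were lower, against 1.57% of all genes, and 1 was higher, against 1.83%. The 6 that fell were the sterol enzymes ACAT2, HMGCS1, FDPS, SQLE, LSS and DHCR7, and all 18 sterol values were negative with a median of -0.37. The 18 include CYP51A1, which had only 3 and 0 counts at day 10 and 10 and 5 counts at day 8 in these sh-NC libraries. HMGCS1 had 339 and 394 CPM at day 10 and 541 and 564 CPM at day 8 in Jurkat sh-NC, and LSS had 129 and 129 CPM at day 10 and 219 and 208 CPM at day 8. ABCG1 was the 1 gene that rose, by 0.60 ± 0.11 (adjusted p 0.00989), and its call was lost without Jurkat day 8 sh-NC replicate 2 or either day 10 sh-NC library (adjusted p up to 0.148). The calls of FDPS, SQLE and DHCR7 were each lost in 2 of 20 alternatives, with adjusted p up to 0.112, 0.106 and 0.109: without Jurkat day 8 sh-NC replicate 2 for all 3, and without Jurkat day 10 sh-NC replicate 2 for FDPS and DHCR7 or replicate 1 for SQLE. The medians of the other roles in Jurkat sh-NC were -0.09 for the regulators, -0.09 for the fatty acid branch and 0.60 for the 3 efflux genes and LXR targets, all 3 of which had positive values. The count of 7 calls was 3 without Jurkat day 8 sh-NC replicate 2 and 4 without Jurkat day 10 sh-NC replicate 2, and 12 without either 6T-CEM day 5 sh-SH2D1A library.

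**Figure D4:**
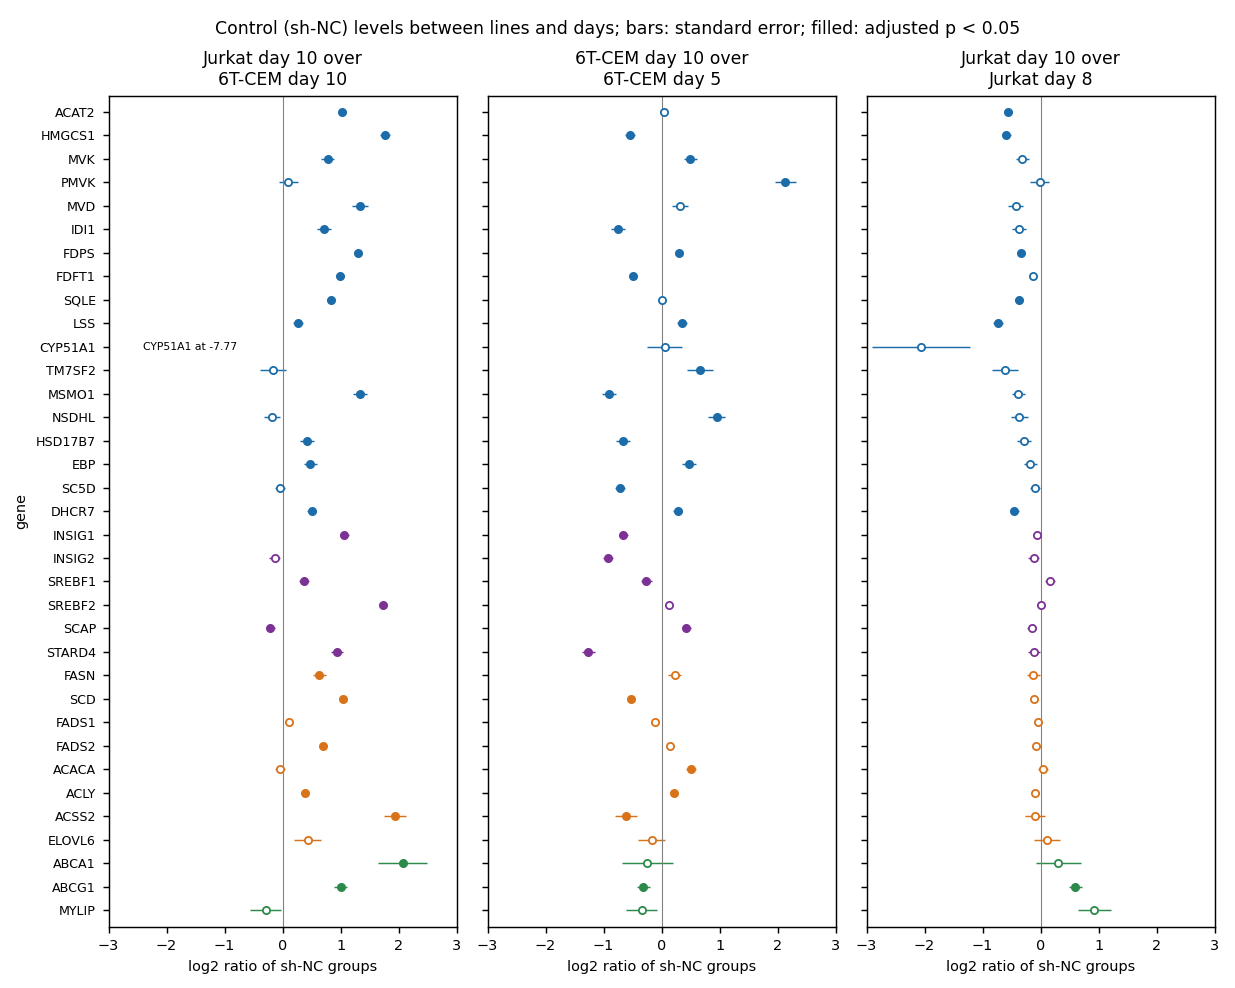
Log2 ratios between sh-NC groups (horizontal axes) for each of the 35 genes (vertical axis), with bars for the standard error and filled points for an adjusted p under 0.05, for Jurkat day 10 over 6T-CEM day 10, 6T-CEM day 10 over day 5 and Jurkat day 10 over day 8. Most filled points lie right of 0 in the first panel, on both sides in the second, and the sterol genes lie left of 0 in the third.

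Other genes of these pathways were taken from 4 further lists. In the list of SREBP processing and sterol-regulated degradation, MBTPS1, the first SREBP protease, rose at 6T-CEM day 10 (0.17 ± 0.04, adjusted p 0.0190). The medians of this list lay between -0.10 and -0.05 in the 4 comparisons.

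The shares of all tested genes called lower and higher, against which the counts in these lists stand, were 7.13% and 5.23% at Jurkat day 8, 2.52% and 1.26% at Jurkat day 10, 1.51% and 0.606% at 6T-CEM day 5, and 7.42% and 6.61% at 6T-CEM day 10. With 9 genes in a list, 1 call is near these shares at Jurkat day 8 and 6T-CEM day 10. Among 16 tested genes of fatty acid elongation, activation and supply, 6, 3, 1 and 5 fell in the 4 comparisons and none rose, with medians of -0.18, -0.13, -0.36 and -0.12. SCD5, a second stearoyl-CoA desaturase, fell with log2 changes of -0.41 ± 0.07, -0.56 ± 0.09 and -0.33 ± 0.06 at Jurkat day 8, Jurkat day 10 and 6T-CEM day 10 (adjusted p 0.00898, 0.00680 and 0.00753). HACD2, a dehydratase of elongation, fell in the same 3 comparisons, with log2 changes of -0.50 ± 0.06, -0.46 ± 0.11 and -0.46 ± 0.05. At 6T-CEM day 5 SCD5 was at -0.53 ± 0.13 and HACD2 at -0.56 ± 0.14, and neither passed (adjusted p 0.0857 and 0.0809). Among 9 genes of mevalonate side branches, 3, 1, 0 and 1 fell and 1, 0, 0 and 1 rose. NUS1, a subunit of the dolichol-making enzyme, fell at Jurkat day 8 (-0.38 ± 0.06) and 6T-CEM day 10 (-0.41 ± 0.04), while its partner DHDDS rose at Jurkat day 8 (0.40 ± 0.07, adjusted p 0.0120). Among 9 genes of LXR, esterification and uptake, 0, 1, 1 and 1 fell and 2, 0, 0 and 2 rose. The genes that rose at Jurkat day 8 and 6T-CEM day 10 were both times RXRA, the partner of LXR, at 0.60 ± 0.08 and 0.55 ± 0.10, and NR1H2, which encodes LXR beta, at 0.38 ± 0.06 and 0.57 ± 0.06. Of the lipoprotein receptors listed, LRP8 fell in both 6T-CEM comparisons (-0.68 ± 0.13 at day 5 and -0.24 ± 0.05 at day 10) and VLDLR at Jurkat day 10 (-0.50 ± 0.09).

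Promoter windows of 300 bases from RefSeq were at hand for 30 of the 35 genes, 41 windows in all, with none for ACAT2, FDFT1, SQLE, FASN and ABCG1. CCAAT, the NF-Y box, was read on both strands in 26 of the 41 windows (63.4%), against 34.6% of all 35116 windows, and 22 of 30 genes had it in at least 1 window, among them 13 of 15 sterol enzymes. The E-box CACGTG was in 6 windows (14.6%), against 7.26% of all windows, in ABCA1, INSIG1, LSS, SC5D and SCAP. The looser sterol regulatory element TCANNCCAC, which includes every TCACNCCAC, was in 3 windows (7.32%), against 3.82%, in INSIG1, ACLY and SREBF2, and the stricter TCACNCCAC in 1 (2.44%), against 1.13%. These are descriptions of letters within the windows, and genes with several starts count several times. Whether genes with CCAAT in a window changed otherwise than genes without it was not tested.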

How the data were processed

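The data are RNA-seq libraries of Jurkat and 6T-CEM cells, and the values deposited by the authors are whole-number counts per Ensembl gene, not normalised, with a table per line and day (4 in all). Alignment tools and build are listed as StringTie, HISAT2 2.2.0 and hg38 in the submitters' processing notes. For the annotation release, the counting step and the strand setting, nothing is stated in the labels, so reads of overlapping genes on opposite strands, such as FADS1 and FADS2, and of close copies, such as FDPS and its pseudogenes, are uncertain. Gene positions, overlaps and exon lengths come from GENCODE 29 on GRCh38, and promoter windows from RefSeq on GRCh38.p14.

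Each table was fitted alone in R 4.3.3 with edgeR 4.0.16, using filterByExpr (minimum count 10), TMM, glmQLFit and glmQLFTest (two-sided), sh-SH2D1A over sh-NC. P-values were adjusted by Benjamini-Hochberg over all genes tested, with calls made below 0.05. Standard errors were taken as |log2 change| divided by the root of F. The mean change, the differences between changes and the contrasts of controls come from a joint fit of the 16 libraries in 8 groups. Printed CPM were scaled by TMM over all 16 libraries, and RPKM divide them by exon length. The depth of 27217899 to 33788024 counts per library means that a count of 0 allows up to 3 counts, which covers counting error only.

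The genes and lists were chosen with earlier results of these data known. Values in every library are given for up to 4 members of each role, those called in most of the 4 comparisons, with ties broken by the lowest p of the mean change. From each further list up to 4 genes called in most comparisons were eligible for naming by the same order. PMVK, TM7SF2, SCAP, SQLE, SREBF2 and other members given with values outside that rule were picked for naming with their values in view. The alternatives were DESeq2 1.42.0 size factors in edgeR, its Wald test, low counts left in, a replicate block, all 16 libraries in 1 fit, and each library left out in turn. The fits were tested on simulated data with changes of known size put in. A 1.5-fold change was recovered for 50% and 36% of the changed genes at days 8 and 10 of Jurkat. At days 5 and 10 of 6T-CEM it was recovered for 15% and 51%, so changes of that size were missed most often at 6T-CEM day 5. Some genes of these pathways are not reported here.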

Additional observations from a re-analysis of the deposited data

Results flagged for a closer look

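Of the 35 genes, 2 had knockdown changes that differed between the days of 6T-CEM cells by a test of the difference itself. SQLE changed by -0.03 ± 0.04 at day 10 and -0.55 ± 0.13 at day 5 (log2, SE), and the difference, day 10 minus day 5, was 0.53 ± 0.09 (adjusted p 0.0198, edgeR's quasi-likelihood test over 16 libraries). SREBF2 changed by 0.11 ± 0.04 at day 10 and -0.36 ± 0.12 at day 5, and the difference was 0.48 ± 0.10 (adjusted p 0.0423). Both lost the call when 1 day 10 library of 6T-CEM was left out, with adjusted p from 0.0689 to 0.124 for SQLE and from 0.113 to 0.202 for SREBF2. SQLE also lost it without day 5 sh-NC replicate 2 (0.0678). SREBF2 also lost it without any 1 Jurkat library, with adjusted p from 0.0596 to 0.0811, and without day 5 sh-NC replicate 1 (0.113), sh-NC replicate 2 (0.0732) or sh-SH2D1A replicate 2 (0.0530).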

How the results depend on the processing

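Counts of called members kept within 1.5 times their value in 138 of 176 alternatives, and 2262 of 2513 single gene values kept their direction and side of the threshold. Many of these alternatives left out a library on neither side of the contrast, and a count of 0 that stayed 0 was taken as kept. These totals are therefore not a measure of stability. Exceptions follow. At 6T-CEM day 5 the 9 calls became 15 with the DESeq2 Wald test, 20 with a replicate block, 22 with all 16 libraries in the fit and 2 to 18 with 1 library left out. At Jurkat day 8 the range was 13 to 25 around 24. At Jurkat day 10, 15 became 0 without the filter on low counts, a setting that tested more genes, and 12 to 14 with 1 library left out. At 6T-CEM day 10, 12 became 7 without the filter, 6 with all 16 libraries and 9 to 11 with 1 left out. The Jurkat minus 6T-CEM difference at day 10 gave 6 with DESeq2, 2 with a replicate block and 0 to 6 with 1 left out, around 0. The 6T-CEM day difference gave 12 with DESeq2, 5 with a replicate block and 0 to 13 with 1 left out, around 2. The Jurkat sh-NC day contrast gave 12 with DESeq2 and 3 to 12 with 1 left out, around 7. Ranges with 1 left out were 25 to 29 for the mean change, 0 to 0 for the Jurkat day difference, 21 to 27 for the line contrast of controls and 19 to 28 for the 6T-CEM one.

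Reversals came only from leaving out 1 library, and no gene among them was called in that comparison. With 1 library left out, log2 changes ran from -0.16 to 0.0055 for INSIG2 and from -0.17 to 0.0842 for MYLIP at Jurkat day 10. They ran from -0.32 to 0.28 for ACSS2 and from -0.27 to 0.36 for MYLIP at 6T-CEM day 5. At 6T-CEM day 10 they ran from -0.0046 to 0.0524 for STARD4, from -0.27 to 0.0381 for ACSS2, from -0.80 to 0.17 for ABCA1 and from -0.44 to 0.17 for the median of the efflux genes. The cause was not tested.

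Of the calls, 11 of 24, 0 of 15, 2 of 9 and 4 of 12 held in every alternative at days 8 and 10 of Jurkat and days 5 and 10 of 6T-CEM, and 9 of 15 at Jurkat day 10 apart from the setting without a filter. INSIG1 and FADS2 are the 2 at 6T-CEM day 5. Libraries of equal replicate number share only a number. The correlation of their deviations over genes was 0.0109 and 0.0968 in the Jurkat tables and 0.108 and 0.007 in the 6T-CEM ones, and the block result is given only as counts. With 2 libraries in a group, leaving 1 out assumes that the lone library varies like the others. Depth limits ABCA1, MYLIP and CYP51A1, which had under 100 counts in some libraries.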
